A study of Mus musculus with 3 samples.

Results

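The nuclear genes of oxidative phosphorylation were taken from the annotation by symbol, as protein-coding genes whose symbols start with Nduf, Uqcr, Cox4, Cox5, Cox6, Cox7, Cox8 or Atp5, together with Sdha, Sdhb, Sdhc and Sdhd. The rule found 96 genes among 21887 protein-coding genes on chromosomes 1 to 19, X and Y. By role, 7 encode core subunits of complex I, 32 its accessory subunits and 8 its assembly factors, and 4, 8, 20 and 17 belong to complexes II, III, IV and V. Ndufa4 and Ndufa4l2 were placed with complex IV, the complex in which the Ndufa4 protein is now known to reside. No measured value enters this rule.

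H3K4me3, histone H3 trimethylated at lysine 4, was mapped with ChIP-seq (immunoprecipitated chromatin, sequenced) in granulosa cells, the somatic cells that line the ovarian follicle. The females were wild type C57BL/6 mice at postnatal days 21 to 28. All had received 4 IU of eCG, a hormone that promotes follicular growth. The 0 h library came from ovaries taken before hCG, and the others from ovaries taken 4 h and 12 h after 5 IU of hCG, which triggers ovulation and luteinization. Cells were released by puncturing follicles, so other cells of the follicle could enter the preparation, and the number of mice behind a library is not stated. With 1 library per time there was no spread between replicates and no test, so every value below describes 3 libraries. In bulk chromatin, fewer cells with the mark at a gene and less of the mark per cell cannot be told apart.

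Complexes I to IV of the inner mitochondrial membrane pass electrons from NADH and succinate to oxygen. All of these but complex II pump protons, and complex V, the ATP synthase, uses the proton gradient to make ATP. Most subunits are encoded in the nucleus, and many of their promoters are rich in CpG and have binding sites for the factors NRF1 and GABP. H3K4me3 sits mainly on the first nucleosomes after an active start, flanking the nucleosome-poor start itself. In luteinizing granulosa cells the mitochondrion also houses the first step of steroid synthesis.

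The deposited lists held 22236, 23662 and 20669 peaks at 0, 4 and 12 h on the chromosomes used, with median widths of 306, 315 and 333 bp and covering 8.87, 10.12 and 8.93 Mb. Of 10 granulosa markers, 8, 9 and 7 had covered bp, summing to 10926, 7606 and 3593 bp, and Amh, a defining granulosa gene, was at 0 in every library. Of 6 theca and stroma markers, 0, 1 and 2 were covered, namely Cyp11a1 with 0, 437 and 353 bp and Pdgfra with 192 bp at 12 h. Of 5 endothelial markers 0, 1 and 1 were covered, each time Kdr. Of 6 immune markers 1, 2 and 1 were covered, Cd68 at every time and Ptprc with 139 bp at 4 h. Gdf9 was the only covered oocyte marker of 5, and its covered bp were those of the member Uqcrq, whose window overlaps it. The part of cell makeup in the results below was not tested.

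Nearly every member was marked at every time. The measure is covered bp, how many bp of a window, the gene and 5 kb on either side of it, fell inside peaks. Some bp were covered in 88 of 96 members at 0 h (91.7%), in 90 at 4 h (93.8%) and in 87 at 12 h (90.6%). Over all protein-coding genes the shares were 56.3%, 58.3% and 56.2%. Among genes with any covered bp, the members had medians of 998.5, 1014.5 and 905 covered bp, against 852, 916 and 845 bp over all genes. The members are the shorter genes, with a median length of 7228 bp against 17169 bp, so their windows were shorter too. The most covered bp at 4 h were at Ndufv2, an iron-sulfur core subunit of complex I, with 1653, 2180 and 1781 bp, and at Uqcrh, the hinge subunit of complex III, with 2029, 2156 and 1896 bp. In Ndufv2 the peak at the start was of nearly constant width, with 812, 813 and 799 bp, and the other bp lay over 20 kb downstream, beyond the gene's far end and inside the neighbour Ankrd12. In Uqcrh the widest peak lay on the side of the neighbour Lrrc41. The next were Ndufb6 with 2124 bp, Ndufa6 with 1897 bp and Ndufs1 with 1850 bp at 4 h, the first pair accessory subunits and the last an iron-sulfur core subunit.

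**Figure D1:**
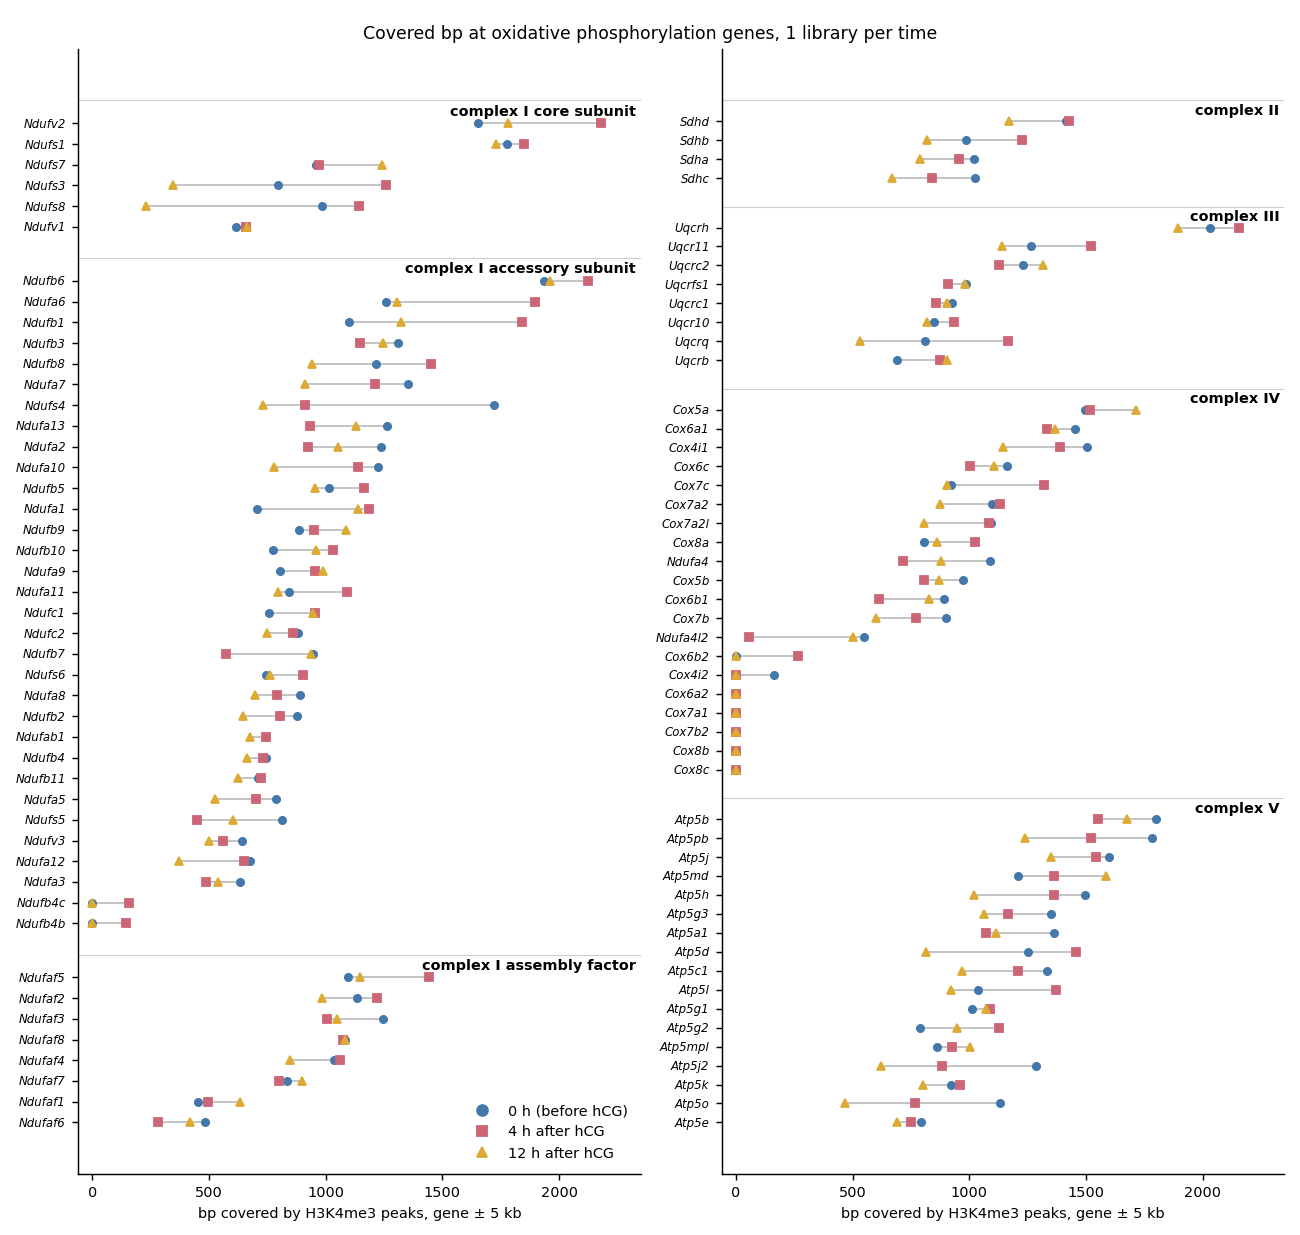
Covered bp (x axis) of the members, 1 left out, at 0 h (circles), 4 h (squares) and 12 h (triangles), 1 library per time, grouped by complex; grey lines join the lowest and the highest time. Most members lie between about 500 and 2000 bp at every time, and 5 complex IV isoforms lie at 0 throughout.

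The 5 members at 0 bp in every library were all isoforms of complex IV subunits known from other tissues. Cox6a2, Cox7a1 and Cox8b are the heart and skeletal muscle forms, and Cox7b2 and Cox8c are testis forms. Of the other members with 0 bp at some time, Cox4i2, the form known from lung and hypoxia, had 163, 0 and 0 bp at 0, 4 and 12 h. Cox6b2, another testis form, had 0, 264 and 0 bp, from 1 peak that lay 149 to 412 bp after its start. Each of these peaks was narrower than the median of its list. The narrowest peaks of the 3 lists measured 136, 139 and 152 bp.

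The common counterparts were covered in every library. Cox4i1 had 1506, 1390 and 1142 covered bp, Cox6a1 had 1453, 1334 and 1367 bp, and Cox6b1 had 890, 612 and 827 bp. Cox7a2 had 1098, 1132 and 876 bp, Cox7b had 900, 772 and 599 bp, and Cox8a had 805, 1023 and 862 bp. In this window the common and the tissue forms of these 6 families did not overlap at any time. The lowest value of a common form, 599 bp at Cox7b, was over 2 times the highest of a tissue form, 264 bp at Cox6b2. These sums include peaks far from the start, as at Cox7b and Cox6a1. Within 1 kb of the start the gap was smaller, with 326 bp at Cox7b at 0 h against 264 bp at Cox6b2 at 4 h.

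Ndufa4l2, a hypoxia-inducible relative of Ndufa4, had 546, 55 and 502 covered bp, but none of these lay within 1 kb of either end of the gene. They came from peaks over 4 kb beyond the gene at chr10:127521494-127522356 at 0 h, inside the neighbour Shmt2. At 4 h 1 peak of 250 bp lay there, of which 55 bp were inside the window, and its large ratios between times rest on that edge. Ndufa4 itself had 1089, 717 and 880 bp, within 1 kb of its start. Ndufb4b and Ndufb4c, further copies of the accessory subunit gene Ndufb4, had 0, 144 and 0 bp and 0, 156 and 0 bp, while Ndufb4 had 743, 731 and 664 bp.

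**Figure D2:**
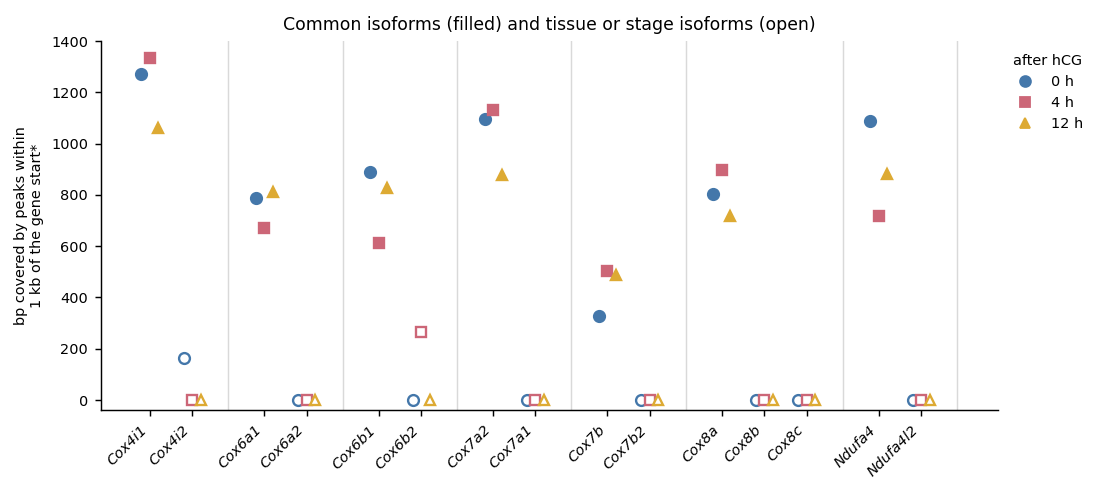
Bp covered by peaks within 1 kb of the gene start (y axis) for common isoforms (filled) and tissue or stage isoforms (open) at 0 h (circles), 4 h (squares) and 12 h (triangles). *Within 1 kb of either gene end for Cox4i1, Cox4i2, Cox6a2, Cox8c and Ndufa4l2, which have no start in the promoter table; the common forms lie above the tissue forms of their own family at every time.

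The promoters of 3 such pairs are shown because in each a common form marked in every library can be set beside a tissue form with no peak (Cox7a1 and Cox8b) or a peak at 4 h alone (Cox6b2). They are RefSeq sequences of build GRCm38.p6, each 300 bases long, 250 before and 50 from the start, 5′ to 3′ on the gene's strand, with each CpG in capitals. Cox6b1 lies at chr7:30626065-30626364 on the minus strand, Cox6b2 at chr7:4753045-4753344 on the minus strand, and Cox7a2 at chr9:79759804-79760103 on the minus strand. Cox7a1 lies at chr7:30183921-30184220 on the plus strand, Cox8a at chr19:7217567-7217866 on the minus strand, and Cox8b at chr7:140900397-140900696 on the minus strand.
Cox6b1: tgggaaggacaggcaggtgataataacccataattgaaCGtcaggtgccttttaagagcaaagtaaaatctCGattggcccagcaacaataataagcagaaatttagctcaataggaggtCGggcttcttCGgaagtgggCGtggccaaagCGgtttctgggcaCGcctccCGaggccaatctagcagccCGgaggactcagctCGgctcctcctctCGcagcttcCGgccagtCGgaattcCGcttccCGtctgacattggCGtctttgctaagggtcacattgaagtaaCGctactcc
Cox6b2: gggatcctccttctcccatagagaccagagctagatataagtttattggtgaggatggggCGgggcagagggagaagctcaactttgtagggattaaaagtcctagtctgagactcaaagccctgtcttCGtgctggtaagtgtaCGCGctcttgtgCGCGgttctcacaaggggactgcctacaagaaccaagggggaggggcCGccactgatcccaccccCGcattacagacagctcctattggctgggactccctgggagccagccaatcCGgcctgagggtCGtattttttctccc
Cox7a2: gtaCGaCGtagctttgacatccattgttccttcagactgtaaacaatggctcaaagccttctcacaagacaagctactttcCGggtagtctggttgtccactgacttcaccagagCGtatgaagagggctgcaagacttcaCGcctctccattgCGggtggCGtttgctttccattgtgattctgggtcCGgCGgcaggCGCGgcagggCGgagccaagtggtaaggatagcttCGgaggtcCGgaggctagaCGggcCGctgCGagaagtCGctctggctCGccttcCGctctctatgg
Cox7a1: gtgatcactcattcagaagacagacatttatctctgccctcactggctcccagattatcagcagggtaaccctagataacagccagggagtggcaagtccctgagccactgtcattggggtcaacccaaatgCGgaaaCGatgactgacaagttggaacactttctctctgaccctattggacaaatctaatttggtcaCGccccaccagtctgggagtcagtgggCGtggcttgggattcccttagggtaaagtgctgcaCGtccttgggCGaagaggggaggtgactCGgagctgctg
Cox8a: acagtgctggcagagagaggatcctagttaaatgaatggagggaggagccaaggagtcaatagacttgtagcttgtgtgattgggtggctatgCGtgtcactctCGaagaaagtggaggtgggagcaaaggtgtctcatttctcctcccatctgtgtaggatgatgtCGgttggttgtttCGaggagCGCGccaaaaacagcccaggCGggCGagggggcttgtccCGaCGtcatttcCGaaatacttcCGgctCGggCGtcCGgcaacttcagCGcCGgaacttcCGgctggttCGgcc
Cox8b: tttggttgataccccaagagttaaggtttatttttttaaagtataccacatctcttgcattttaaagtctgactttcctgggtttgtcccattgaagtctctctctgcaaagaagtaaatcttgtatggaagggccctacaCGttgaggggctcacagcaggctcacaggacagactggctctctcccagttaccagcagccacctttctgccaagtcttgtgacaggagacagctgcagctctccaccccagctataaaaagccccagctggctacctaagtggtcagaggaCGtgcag
The common forms hold 17 CpG in Cox6b1, 20 in Cox7a2 and 19 in Cox8a, against 10 in Cox6b2, 7 in Cox7a1 and 2 in Cox8b. The other pair with both promoters in the table went the other way, with 5 CpG in the common form Cox7b and 10 in Cox7b2. In the 3 pairs shown, total GC content was 53%, 56.7% and 56% in the common forms and 55.7%, 53% and 48.3% in the tissue forms.

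The promoter table held 78 of the 96 members, and 17492 of all protein-coding genes. Over these 78 the median was 19.5 CpG per 300 bases, against 13 over all genes. Members with a peak within 1 kb of their start at every time had a median of 20 CpG (n = 70), below the 23 of all 8018 genes so marked. The 4 tissue isoforms in the table had a median of 8.5. Cox7b, on chromosome X, had its 5 CpG and yet 326, 502 and 488 bp within 1 kb of its start, so it was marked in every library at a low CpG count.

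**Figure D3:**
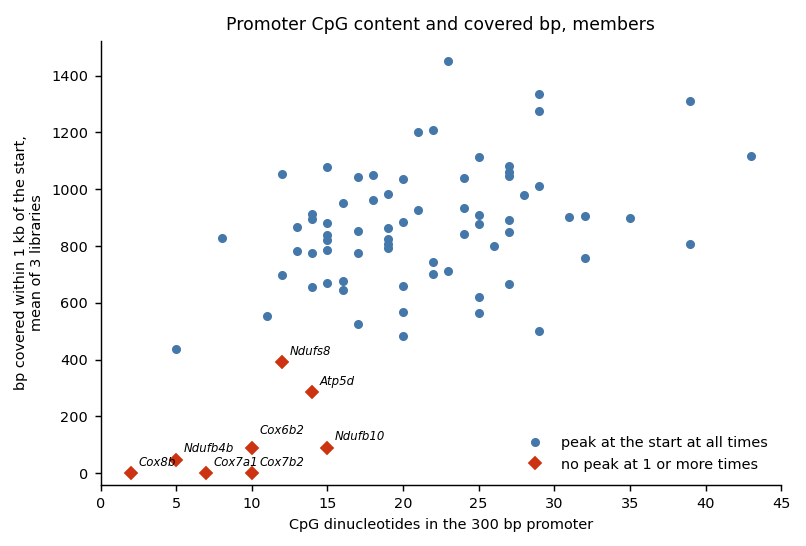
Number of CpG in the 300 base promoter (x axis) and bp covered within 1 kb of the start, as the mean of the 3 libraries (y axis), for the 78 members in the promoter table. Diamonds mark the 8 members with no peak there in 1 or more libraries, which hold between 2 and 15 CpG; circles mark the other 70.

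Sequence motifs named for factors of these promoters were counted on both strands of the same 300 bases. The NRF1 motif GCGCATGC was found in 12 of 78 members (15.4%) and in 3.61% of all promoters. Among genes with a start peak at every time it was in 17.1% of members and 6.41% of all. Its holders include the ATP synthase genes Atp5g2, Atp5k and Atp5l, the complex IV gene Cox6a1 and the complex II gene Sdhb. Because this motif's reverse complement overlaps it, 1 stretch can match on both strands.

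The ETS motif CCGGAAG, bound by GABP among other ETS factors, was in 18 members (23.1%) against 11.9% of all promoters, but among genes with a start peak the shares were 24.3% and 21.9%. Of the promoters printed above, Cox8a holds 2 ETS matches and Cox6b1 holds 1, and the other 4 hold none. The SP/KLF motif GGGCGG was in 44.9% of members and 46.3% of all promoters, and among genes with a start peak in 47.1% and 70.4%. The YY1 motif AAGATGG was in 14.1% of members and 6.35% of all promoters. The ERR motif TCAAGGTCA was in 2 members, Atp5g3 and Sdhd (2.56% against 0.332%). The TATA box TATAAA was in 10.3% of members and 13.3% of all promoters, but in 8.57% and 5.64% of those with a start peak at every time, and the CCAAT box in 43.6% of members and 39.2% of all promoters. The cyclic AMP response element TGACGTCA was in 4 members (5.13% against 2.33%). For this element the shares among genes with a start peak at every time were 5.71% and 3.97%. A match describes letters in this window and is not a measured binding site.

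The mark sat on the gene side of the start. A peak lay within 1 kb of the start in 73 of 78 members at 0 h, in 74 at 4 h and in 70 at 12 h, with 49.1%, 50.5% and 48.8% over all genes in the table. Cox7a1, Cox7b2 and Cox8b had none at any time, Cox6b2 and Ndufb4b had one at 4 h only, Ndufb10 had one at 0 h only, and Ndufs8 and Atp5d had one at 0 h and 4 h but not at 12 h. For Atp5d this depends on the start used, which lies inside the gene record, and peaks at the record's own 5′ end were present at 4 h and 12 h. Of the covered bp of the 78 members, 82.2%, 80.6% and 82.6% lay within this distance of the start. Among genes with such a peak, the medians within 1 kb were 877, 887.5 and 815.5 bp in members and 702, 739 and 694.5 bp in all genes, in windows of equal length.

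In the 70 members marked there at every time, the start position itself was covered in 1.43%, 5.71% and 2.86% at 0, 4 and 12 h, while 92.86%, 92.86% and 85.71% were covered 500 bp into the gene. Over the 8018 genes so marked, the start was covered in 7.99%, 10.45% and 9.28% and the position at 500 bp in 68.91%, 71.80% and 68.21%. At 1000 bp the order was the other way, with 20%, 22.86% and 15.71% of members and 29.88%, 33.94% and 29.95% of all. A larger share of members than of all genes was thus covered at 500 bp, and a smaller share at 1000 bp. The median bp in the 1 kb after the start was 771.5 at 0 h, 717.5 at 4 h and 664 at 12 h in members, and 579, 632 and 583.5 bp in all genes.

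**Figure D4:**
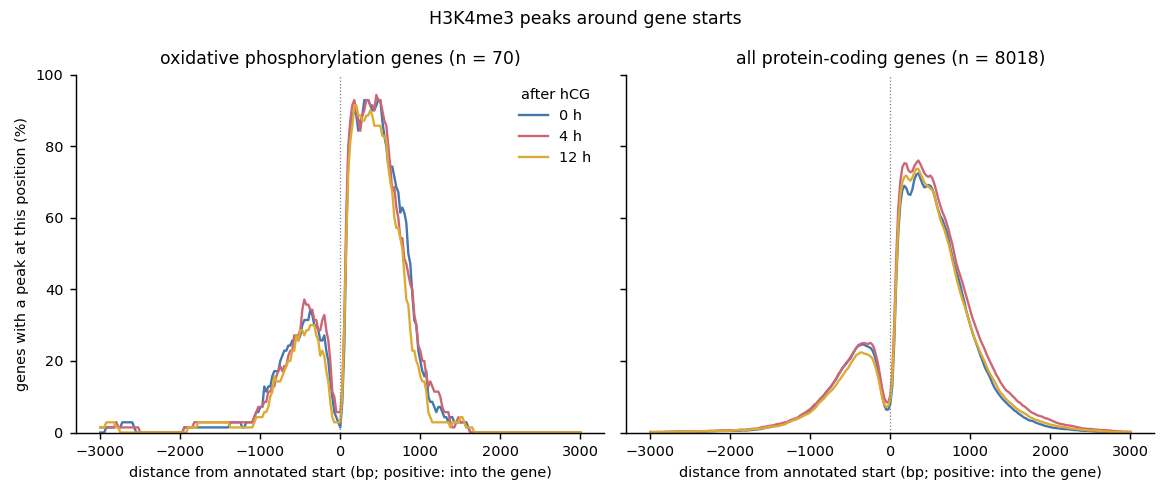
Share of genes (y axis, %) with a peak at each distance from the annotated start (x axis, bp, positive into the gene) for the 70 members (left) and the 8018 genes (right) with a peak within 1 kb at all times, 1 line per library. Members reach 92.86%, 94.29% and 91.43% just inside the gene, all genes 72.41%, 75.99% and 73.70%, and both dip at the start.

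Many members share their promoter region with another gene. Another protein-coding gene lay within 5 kb of 78 of the 96 members (81.2%), against 49.1% of all genes, and covered bp in these windows can belong to the neighbour. Of the 78 members in the promoter table, 21 (26.9%) had a start on the opposite strand within 1 kb before their own, an arrangement called head to head, against 7.52% of all genes in the table. In 19 of these 21 the 1 kb before the start held covered bp at 0 h (90.5%), in 18 at 4 h (85.7%) and in 17 at 12 h (81.0%). Of the other 57 members, 15, 19 and 12 did (26.3%, 33.3% and 21.1%). Head-to-head genes of the whole table showed 81.4%, 81.8% and 77.7% and the others 16.8%, 17.5% and 14.8%, so the same difference was present over the whole table. Ndufa7, an accessory subunit opposite the ribosomal gene Rps28, had 539, 143 and 0 bp after its start and 815, 868 and 750 bp before it, on the side of Rps28. Its total of 1354, 1211 and 910 bp thus came at 12 h from bp outside the first 1 kb of the gene.

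Change between times was read as the log2 ratio of covered bp, later over earlier, minus the median of all genes covered at both times, and called broader or narrower beyond 1.5-fold. The medians taken off were 0.116 for 0 to 4 h, −0.139 for 4 to 12 h and −0.019 for 0 to 12 h. All 87 members covered at both times of a comparison were covered at all 3.

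From 0 to 4 h, 2 of 87 members were broader (2.30%) and 9 narrower (10.3%), against 13.0% and 10.4% of all genes. From 4 to 12 h, 3 were broader (3.45%) and 5 narrower (5.75%), against 9.60% and 12.4%. From 0 to 12 h, 1 was broader (1.15%) and 10 narrower (11.5%), against 12.8% and 12.9%. The shares of narrower members from 0 to 4 h and from 0 to 12 h were near those of all genes, and the shares of broader members were lower in every comparison.

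The median centred log2 ratio of members was −0.13, −0.05 and −0.14 in the 3 comparisons, with 59, 48 and 60 of 87 members below 0, where all genes have a median of 0. These shifts are smaller than the 1.5-fold, which is 0.585 on this scale. The highest of a member's 3 values was under 1.5 times the lowest in 67 of 87 members (77.0%), against 57.7% of 11607 genes covered throughout, and 7 members differed by 2 times or more. The largest value was at 0 h in 42 members, at 4 h in 34 and at 12 h in 11, while of all such genes 29.1%, 46.4% and 24.5% did. The smallest value was at 12 h in 44 members, at 0 h in 22 and at 4 h in 21. Over all genes these shares were 41.0%, 38.9% and 20.2%.

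**Figure D5:**
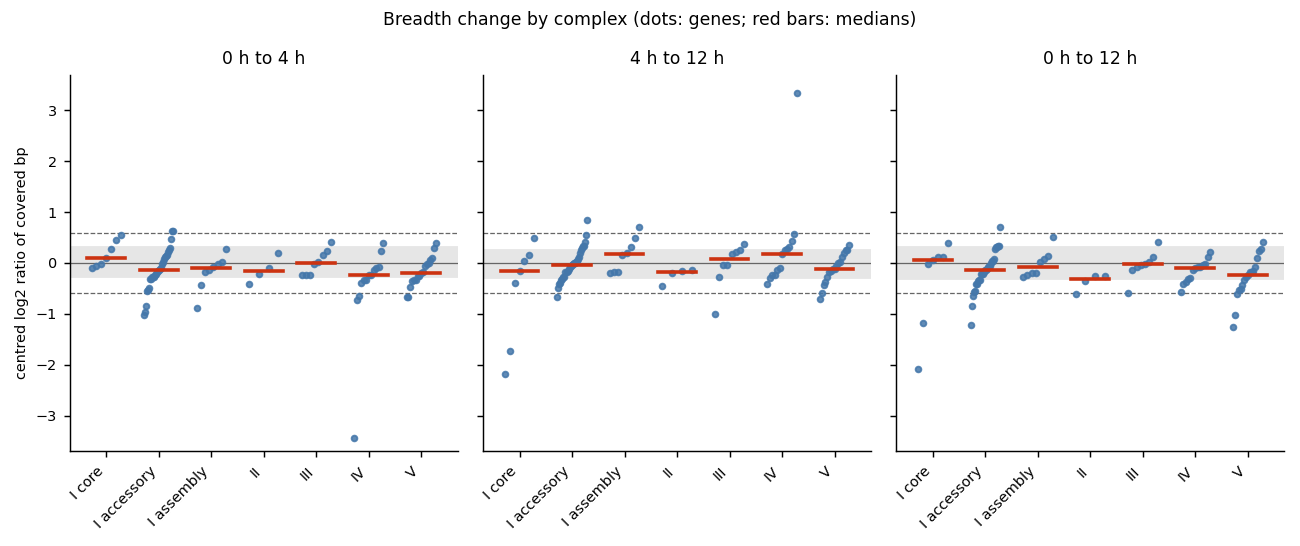
Centred log2 ratio of covered bp (y axis) for members covered at both times, in 3 panels by comparison and grouped by complex (x axis); dots are genes, red bars group medians, dashed lines the 1.5-fold, and the grey band the middle 50% of all genes. Most dots lie between the dashed lines, and the dots farthest out are Ndufa4l2 in complex IV and Ndufs8 and Ndufs3 in the core of complex I.

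Loss and gain of all covered bp touched the isoforms and copies already named. From 0 to 4 h, 3 of 8 members without covered bp gained some, Cox6b2, Ndufb4b and Ndufb4c, against 7.87% of such genes, and 1 of 88, Cox4i2, lost all, against 2.58%. From 4 to 12 h, 0 of 6 gained and 3 of 90 lost all, against 3.59% and 6.22%, and the 3 were those that had gained. From 0 to 12 h, 0 of 8 gained and 1 of 88, Cox4i2, lost all, against 5.89% and 4.81%.

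In the core of complex I, which carries the electron path from NADH to ubiquinone, 2 of 7 genes were narrower at 12 h. Both passed the fold from 4 to 12 h and from 0 to 12 h, where 12.4% and 12.9% of all genes were narrower. Ndufs8, an iron-sulfur subunit of the arm that meets the membrane, had 982 covered bp at 0 h, 1142 at 4 h and 229 at 12 h. Its start window of 1 kb on each side held 539, 631 and 0 bp, and its 12 h peak lay over 6 kb from the start, past the gene's end and inside the neighbour Tcirg1. The centred log2 ratio was −2.18 from 4 to 12 h and −2.08 from 0 to 12 h.

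Ndufs3, a core subunit of the same arm, had 795, 1260 and 347 bp, all within 1 kb of its start. The start is shared head to head with Kbtbd4. After its start it had 343, 822 and 347 bp, and before it 452, 438 and 0 bp. The 12 h value was thus close to the 0 h value on the side of Ndufs3 and at 0 on the side of Kbtbd4. Its ratio was −1.72 from 4 to 12 h and −1.18 from 0 to 12 h.

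Of the other core genes, Ndufs1 had 1777, 1850 and 1731 bp, Ndufs7 had 957, 971 and 1241 bp, and Ndufv1, the NADH-binding subunit, had 616, 656 and 662 bp. These and Ndufv2 did not pass the fold in any comparison.

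Among the 30 covered accessory genes of complex I, which surround and stabilise the core, the median ratios were −0.15, −0.03 and −0.14. Ndufs4, a subunit whose loss causes Leigh syndrome, had 1719, 913 and 733 bp. At its start the values were 666, 697 and 733 bp, highest at 12 h. The difference came from peaks 45 to 47 kb into its long gene, which covered 216 bp at 4 h and none at 12 h. Its ratios were −1.03 from 0 to 4 h and −1.21 from 0 to 12 h, and 0.01 and 0.15 within 1 kb of the start.

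Ndufa1, an X-linked subunit, was the single member broader from 0 to 12 h. It had 704, 1185 and 1140 bp, all within 1 kb of the start. Of these, 141, 388 and 293 bp lay after the start, and 563, 797 and 847 bp before it, outside the gene. The ratios of the totals were 0.64 to 4 h and 0.71 to 12 h. With peaks within 1 kb joined these were 0.31 and 0.21, and the first was 0.48 when each list was cut to the same number of its widest peaks, so these calls were lost. Ndufb1 had 1101, 1840 and 1322 bp and a ratio of 0.63 from 0 to 4 h. In the start window, which it shares with Cpsf2, that ratio was 0.39, with peaks joined 0.35 and with equal peak numbers 0.53, all short of the fold.

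Ndufa12 had 676, 649 and 370 bp, and Ndufa10 had 1226, 1138 and 776 bp. Both were narrower from 0 to 12 h, with ratios of −0.85 and −0.64, and lay wholly within 1 kb of their starts. Ndufa12 was also past the fold from 4 to 12 h, at −0.67, but with equal peak numbers it was at −0.37. Without peaks under the 25th percentile of width Ndufa10 was at −0.45. In Ndufa10 the bp before the start went from 394 to 269 and 0, while those after it were 832, 869 and 776.

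Apart from Ndufa4l2, 5 genes were past the fold as narrower from 0 to 4 h but not from 0 to 12 h. Ndufs5 had 814, 450 and 602 bp, all after the start, and a ratio of −0.97 from 0 to 4 h. Ndufb7 had 944, 571 and 936 bp, with ratios of −0.84 and then 0.85, so that it was past the fold in both directions, the first being −0.58 and short of it without peaks under that width. The assembly factor Ndufaf6 had 483, 283 and 418 bp, with −0.89 and then 0.70, and the latter was −0.22 without such narrow peaks. In complex IV, Cox6b1, with the values given above, had a ratio of −0.66 from 0 to 4 h and 0.57 after it, and Ndufa4 had −0.72 and 0.43. The start of Ndufa4 is shared head to head with Phf14. After its start Ndufa4 had 824, 717 and 728 bp, and before it, on the side of Phf14, 265, 0 and 152 bp.

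Ndufb10 had 772, 1029 and 960 bp and never passed the fold, but its start window differed between libraries. A peak of 269 bp lay 106 to 374 bp after the start at 0 h and none within 1 kb at 4 h and 12 h. All its remaining bp lay inside the ribosomal gene Rps2. The other assembly factors, which build complex I without staying in it, ranged from 451 bp at Ndufaf1 at 0 h to 1441 bp at Ndufaf5 at 4 h, and Ndufaf8 had nearly constant values of 1084, 1075 and 1084 bp.

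Complex II is the succinate dehydrogenase that also works in the citric acid cycle. All 4 of its genes were below 0 from 4 to 12 h and from 0 to 12 h, beside 50% of all genes in each. Sdha, the flavoprotein, had 1020, 957 and 788 covered bp. Sdhb, the iron-sulfur subunit, had 987, 1227 and 819 bp. The membrane anchors Sdhc and Sdhd had 1025, 839 and 668 bp and 1414, 1425 and 1168 bp. The 12 h library was the lowest of the 3 in each gene. Of the 4, Sdhc alone passed the fold, at −0.60 from 0 to 12 h, and the group's median was −0.31. The start window of Sdhb held 787, 853 and 819 bp, all after the start, and that of Sdha held 884, 957 and 788 bp. In the 1 kb after the start, Sdha had 514, 590 and 788 bp and Sdhd had 746, 850 and 795 bp. Before it they had 370, 367 and 0 bp and 668, 575 and 373 bp, their starts being head to head with Ccdc127 and Timm8b. Inside its gene Sdhc had 764, 587 and 668 bp. On the gene side the 12 h value was thus the lowest in none of the 4.

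Complex III, which passes electrons from ubiquinol to cytochrome c, had medians between −0.02 and 0.07. Uqcrq, a small ubiquinone-binding subunit, was its only gene past the fold, with 810, 1166 and 530 bp and ratios of −0.999 from 4 to 12 h and −0.59 from 0 to 12 h, the latter −0.58 and short of the fold with peaks joined. Its window reaches Gdf9 and Leap2. Inside the record of Uqcrq itself lay 810, 898 and 530 bp, which is all of them at 0 h and 12 h. At 4 h a peak of 268 bp lay outside it. To which gene the mark belongs was not tested. The Rieske iron-sulfur gene Uqcrfs1 had 987, 910 and 982 bp, and the core genes Uqcrc1 and Uqcrc2 had 926, 858 and 905 bp and 1228, 1125 and 1317 bp.

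Complex IV, the cytochrome c oxidase, had 13 genes covered at all times. Of these, 11 were below 0 from 0 to 4 h and 11 from 0 to 12 h, beside 50% of all genes in each. The medians were −0.24 and −0.10. The 13 include Ndufa4l2, whose bp lay inside Shmt2 and whose own ratio is the median from 0 to 12 h. From 4 to 12 h the median was 0.17, with 6 below 0. Cox5a, a subunit that stays on the matrix side, had 1496, 1515 and 1715 bp, the highest of the complex at 12 h. Cox7c had 921, 1319 and 903 bp, and within 1 kb of its start 915, 925 and 903 bp. From 4 to 12 h Ndufa4l2 was the single gene of complex IV past the fold, and from 0 to 12 h none was.

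In complex V, 13 of 17 genes were below 0 from 0 to 4 h and 13 from 0 to 12 h, with medians of −0.20, −0.11 and −0.23. Atp5o, which encodes the oligomycin sensitivity protein that joins the stator to the catalytic head, had 1131, 768 and 466 bp. The start window held 867, 768 and 466 bp, in the same order. Its ratio was −0.67 from 0 to 4 h and −1.26 from 0 to 12 h, and −0.23 and −0.89 within 1 kb of the start.

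Atp5j2, a subunit of the membrane part, had 1284, 881 and 621 bp and ratios of −0.66 and −1.03. Its start window held 847, 881 and 621 bp, and there the ratios of −0.00 and −0.44 did not pass the fold. Atp5d, a subunit of the rotating stalk, had 1249, 1455 and 812 bp, with a ratio of −0.70 from 4 to 12 h and −0.60 from 0 to 12 h. With peaks within 1 kb joined, the first was −0.18 and not past the fold. The start window held 569, 288 and 0 bp, but that start lies inside the gene record, and another may be in use. Within 1 kb of the record's ends there were 0, 457 and 396 bp, all at the 5′ end, where the neighbour Cbarp overlaps Atp5d, and there the 0 h library was the lowest. The other bp at 12 h lay inside the neighbour Midn.

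The genes of the main catalytic subunits did not pass the fold. Atp5a1 and Atp5b, the alpha and beta subunits, had 1361, 1069 and 1112 bp and 1799, 1550 and 1676 bp, and Atp5c1, the gamma subunit, had 1332, 1207 and 970 bp. Of the 3 genes of the c ring, Atp5g2 was lowest and Atp5g3 highest at 0 h. Atp5g1 had 1010, 1090 and 1071 bp, Atp5g2 had 790, 1128 and 948 bp, and Atp5g3 had 1351, 1166 and 1064 bp, and none passed the fold. Atp5j, for the coupling factor, had 1600, 1542 and 1350 bp, which are also those of its neighbour Gabpa, a subunit of the factor GABP.

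The genes around the respiratory chain were read from 56 listed genes, all found. Of 10 genes for cytochrome c and for carriers and channels, 8 were covered at all times and none was past the fold. The testis forms Cyct and Slc25a31 were at 0 throughout, as were 5 tissue isoforms among the members, while the somatic forms were covered, Cycs with 1217, 1176 and 1175 bp and Slc25a5 with 885, 1057 and 1178 bp.

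All 30 listed assembly factors were covered at all times. From 0 to 4 h, 3 were broader and 2 narrower, where all genes had 13.0% and 10.4%. From 4 to 12 h the counts were 2 and 3, beside 9.60% and 12.4%, and from 0 to 12 h 4 and 6, beside 12.8% and 12.9%. Broader from 0 to 12 h were Uqcc2, with 144, 311 and 429 bp, and Bcs1l, with 515, 1010 and 834 bp. The others were Surf1, a complex IV factor, with 480, 1084 and 785 bp, and Sdhaf1, a complex II factor, with 492, 527 and 892 bp. Narrower were Cox20, with 1479, 1419 and 856 bp, Uqcc3, with 770, 635 and 427 bp, and also Cox18, Uqcc1, Sdhaf3 and Nubpl.

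Of 16 regulators of mitochondrial genes, 15 were covered at all times. None of the 16 passed the fold from 0 to 4 h, where 13.0% of all genes were broader and 10.4% narrower. From 4 to 12 h, 1 of 15 was broader and 3 narrower, beside 9.60% and 12.4% of all genes. From 0 to 12 h, 1 of 15 was broader and 4 narrower, beside 12.8% and 12.9%. Tfb1m, which modifies mitochondrial ribosomal RNA, had 689, 628 and 264 bp, and Polrmt, the mitochondrial RNA polymerase, had 384, 358 and 0 bp. Tfam, which packages mitochondrial DNA, had 1040, 768 and 659 bp. The GABP subunit gene Gabpb2 had 663, 1061 and 247 bp while Gabpb1 had 1847, 2145 and 2076 bp. The coactivator gene Ppargc1b had 402, 496 and 1340 bp, and its relative Ppargc1a had 1312, 1887 and 1165 bp.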

How the data were processed

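The authors deposited 1 peak list per library, with chromosome, start, end and name of each peak. The values are therefore positions in bp, and widths and covered bp follow from them, with no score, height or read count. Read depth is unknown. Per the submitters' processing notes, CASAVA 1.8, Bowtie2 2.2.3, MACS2 2.0.9 and mm10 were used. No source used here gives the threshold for peaks or says whether an input served as control. Peak names contain the word nolambda at 0 h and 4 h but not at 12 h, per the file contents, although the 12 h list's own name does. Per the labels, the 12 h library was in lane 5 and the others in lane 4, so lane, naming and time cannot be told apart.

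Gene positions came from RefSeq, build GRCm38.p6, the build that mm10 names, and gene starts from the RefSeq promoter table, using the start nearest the gene's 5′ end. It has no entry for 18 members, whose starts were not used here. Overlaps of at least 1 bp counted. Covered bp were summed per gene window, and log2 ratios between times were centred on the median of all genes covered at both. Named were members at 0 bp at any time, up to 8 broadest and 8 narrowest past the fold per comparison, the Sdh genes, the isoform families and the 5 largest at 4 h. Other members named, and examples from the wider pathway, were picked after their values were seen. Values of 1 member, counted in the totals, are not reported here. Members and lists were chosen with earlier results of these data known. The code was tested on simulated data. Python 3.11.15, numpy 2.4.6, pandas 2.3.3 and matplotlib 3.10.9 were used.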

Additional observations from a re-analysis of the deposited data

How the results depend on the processing

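Of 159 values recomputed under alternatives, 109 stayed within 1.5 times the count, or within 0.1 on the log2 scale for medians, and 50 moved. Leaving out members or raising the fold lowers counts by itself. The cause of the other moves was not tested. The median ratio of members was below 0 in all 33 recomputations. The last-named window below and a centring on genes of like breadth were chosen after seeing the data.

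Counts are given as broader and narrower members. The shares of all genes under these settings are not given. The counts therefore do not set members apart from other genes. With 1 kb on each side of the gene, 2 were broader from 0 to 12 h (1 in the report) and 2 gained or lost all bp. In the gene body alone, 3 were narrower from 4 to 12 h with 7 gained or lost, and 4 broader from 0 to 12 h with 5 gained or lost. Within 1 kb of the start, 1 was broader and 3 narrower from 4 to 12 h, and 2 broader, 5 narrower and 3 gained or lost from 0 to 12 h. Without peaks under the 25th percentile of width, 7 were broader from 0 to 4 h with 1 gained or lost, 5 broader from 4 to 12 h, and 3 broader and 20 narrower from 0 to 12 h. With peaks within 1 kb joined, 7 were broader from 0 to 4 h, 10 broader and 11 narrower from 4 to 12 h, and 4 broader from 0 to 12 h. With equal numbers of the widest peaks, 1 was broader from 0 to 4 h and 2 from 0 to 12 h. Leaving out the 78 of 96 members that have another gene within 5 kb makes the set far smaller, and 16, 16 and 16 of the rest were covered. Of these, 0 and 3 passed the fold from 0 to 4 h, 1 and 0 from 4 to 12 h, and 0 and 2 from 0 to 12 h, with 0 gained or lost in each. At 2-fold, 0 and 2, 1 and 2, and 0 and 5 passed. Without centring, 4 were broader from 0 to 4 h, and the medians were −0.01 from 0 to 4 h and −0.19 from 4 to 12 h. From the start to 1 kb into the gene, 5 were narrower from 0 to 4 h, 1 was broader and 2 narrower from 4 to 12 h with 7 gained or lost, and 3 were broader and 6 narrower from 0 to 12 h with 5 gained or lost.

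No paired analysis was possible because there is 1 library per time. Counts of broader and narrower members rest on few genes and on peak boundaries, and covered bp show neither height nor depth. Windows of 78 members include another gene.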
